A study of Mus musculus with 12 samples.

Results

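The transcripts described here are those of 8 genes of the synaptic vesicle and its release machinery, Syn1, Syn2, Syp, Slc17a7, Snap25, Vamp2, Stx1a and Syt1, chosen by name out of 48709 gene IDs counted. All 8 were found in the count files and all 8 passed the filter on low counts, which left 16829 genes. They were measured in dissected CA1 tissue of the mouse hippocampus, with 6 libraries from mice whose coronary artery had been ligated to cause myocardial infarction (MI) and 6 from mice given a similar operation without ligation (Sham). The sources used here give no strain, age, sex, genotype or time after surgery. They also do not say that the libraries are from different animals, and p-values are therefore about the spread among libraries only. The tissue is a dissected piece that holds neurons, glia and vessels together, and in such bulk RNA fewer cells of a type and less RNA per cell cannot be told apart.

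Neurons store transmitter in small vesicles at their terminals and release it when calcium enters. Synapsins hold vesicles in a reserve pool, transporters in the vesicle membrane fill them, and the SNARE proteins of the vesicle and of the plasma membrane zip together to drive fusion, with synaptotagmin as the calcium sensor. Transmission from CA3 axons onto CA1 pyramidal cells is a classic setting for the study of these proteins. The messenger RNA of a terminal is mostly made in the cell body, so CA1 tissue reports on the neurons whose bodies lie in it more than on the axons that end there.

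No difference between MI and Sham was detected for any of the 8 transcripts. The MI and Sham libraries overlapped for 8 of 8 genes, and they were apart in 0.41% of all genes tested. Of the 8, 0 passed the adjusted threshold of 0.05 in edgeR's quasi-likelihood test, which called 0.0% of 16829 genes, and 0 in DESeq2, which called 0.115% of 13886. An unadjusted p under 0.05 in edgeR was found for 0 of the 8 and for 7.55% of all genes. Their log2 fold changes, MI minus Sham, had a median of -0.01, with 3 positive and 5 negative, and the median of all genes tested was -0.01. In edgeR the smallest adjusted p of any gene was 0.597.

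Sequencing depth was between 20764133 (Sham 1) and 35643127 (Sham 5) counts a library. By sex-linked transcripts the libraries form a pair of sets, which are not groups of the study. MI 1, 3 and 4 and Sham 1, 2 and 3 had more counts of Y-linked genes than of Xist, and the remaining 6 had more of Xist, the transcript of the inactive X. The CA1 markers Wfs1 and Fibcd1 were present at 239 ± 65.2 and 231 ± 50.8 CPM (read counts scaled to the size of the library) in MI and at 220.5 ± 46.6 and 216 ± 122 CPM in Sham (SD, n = 6). Some libraries stood apart in their makeup. The summed level of 10 dentate granule cell markers was 302 to 583 CPM in MI and 338 to 1169 CPM in Sham, highest in Sham 6, and that of 9 meningeal fibroblast markers was 45.5 to 138 CPM in MI and 57.2 to 303 CPM in Sham, highest in Sham 1. Log2 fold changes were negative for 8 of the 10 dentate markers (median -0.42) and for 9 of the 9 meningeal markers (median -0.85). Sham 1 also held the highest neocortex sum (7 markers, 207 to 277 CPM in MI and 163 to 451 CPM in Sham) and the lowest CA1 sum (11 markers, 1483 to 1827 CPM in MI and 1057 to 2141 CPM in Sham). The 12 oligodendrocyte markers summed to 5361 to 6762 CPM in MI and 2915 to 5916 CPM in Sham, and their log2 fold changes were positive for 12 of 12 (median 0.50), each with an unadjusted p under 0.05 in edgeR and 0 past the adjusted threshold. The 14 pan-neuronal markers summed to 5912 to 6420 CPM in MI and 5466 to 6279 CPM in Sham, lowest in Sham 6. No marker of these lists was at 0 in all libraries.

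RefSeq upstream sequences (build GRCm38.p6) were at hand for 6 of the 8 genes. Those of Syn1 and Syn2 are shown because the levels of this pair had the highest Pearson correlation across libraries, and that of Stx1a because its level varied most. Each line gives the 250 bases before the RefSeq start, 5′ to 3′ on the gene's strand. They lie at chrX:20920919-20921168 (minus strand) for Syn1, chr6:115134652-115134901 (plus strand) for Syn2 and chr5:135023232-135023481 (plus strand) for Stx1a. The RefSeq start of Syn1 lies inside the gene coordinates given below, which reach 20921004, so its line is not all upstream of them. Syn2 had a further RefSeq window (chr6:115238744-115238993), not shown, in which none of the motifs matched. Capitals mark the letters that matched a motif.
Syn1: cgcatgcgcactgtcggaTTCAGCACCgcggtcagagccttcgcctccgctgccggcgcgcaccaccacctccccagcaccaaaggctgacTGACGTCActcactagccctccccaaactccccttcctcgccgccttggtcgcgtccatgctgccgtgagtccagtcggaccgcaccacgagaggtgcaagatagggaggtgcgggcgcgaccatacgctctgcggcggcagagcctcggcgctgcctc
Syn2: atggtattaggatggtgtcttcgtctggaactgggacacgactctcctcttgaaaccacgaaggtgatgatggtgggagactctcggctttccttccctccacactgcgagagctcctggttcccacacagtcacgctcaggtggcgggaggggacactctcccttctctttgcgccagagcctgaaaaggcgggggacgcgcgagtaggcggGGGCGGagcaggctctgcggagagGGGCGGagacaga
Stx1a: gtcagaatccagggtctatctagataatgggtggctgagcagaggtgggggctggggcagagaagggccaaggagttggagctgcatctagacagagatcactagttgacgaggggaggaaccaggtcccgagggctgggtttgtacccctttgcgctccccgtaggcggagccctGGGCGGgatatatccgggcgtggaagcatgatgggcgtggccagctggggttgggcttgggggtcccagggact

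In the Syn1 line the first run of capitals is TTCAGCACC, the left part of the RE1 element that the neuronal gene repressor REST recognises, with its first base 232 bases before the start. The second is TGACGTCA, the palindromic cyclic AMP response element, with its first base 159 bases before the start. On both strands of 32851 RefSeq promoters of 300 bases (250 before the start and 50 after it) the first motif was present in 0.371% and the second in 1.79%. The whole RE1 motif, with its right part, matched 1 of these promoters exactly and none of the 6 genes with a window. In the Syn1 line the right part followed the left at the spacing of the motif, but with 1 letter that differed. The exact search therefore left Syn1 out. How many promoters hold the whole motif with 1 letter off was not counted. The capitals in the Syn2 and Stx1a lines are GGGCGG, the GC box bound by Sp1-type factors, which stood in the windows of 5 of the 6 genes (Syn2, Syp, Stx1a, Syt1 and Slc17a7) and in 35.7% of all promoters. The motif GCGTGGGCG of the EGR factors was in 0.612% of promoters and in none of the 6 genes. A match of letters is not a measured binding site.

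Per exonic length, the 8 transcripts were among the most abundant in the tissue. As TPM (read counts per base of transcript, scaled to the same sum in each library, computed over the union of a gene's exons; mean ± SD of all 12 libraries), Snap25 stood at 1349 ± 189.8, Vamp2 at 1126 ± 85.4, Slc17a7 at 850.2 ± 104, Syt1 at 823 ± 70.1, Syn1 at 643 ± 63.2, Syp at 629.5 ± 55.2, Syn2 at 364 ± 51.6 and Stx1a at 192 ± 75.3. The mean of Snap25 lay above that of 99.8% of the genes tested and the mean of Stx1a above that of 95.4%. Snap25 was above Vamp2 in 11 of 12 libraries. Slc17a7 and Syt1 could not be ordered, since Slc17a7 was the higher in 6 of 12 libraries, and neither could Syn1 and Syp, where Syn1 was the higher in 6 of 12. Syn2 was below all of these and above Stx1a in 12 of 12 libraries. With the length of the longest transcript in place of the exon union, Vamp2 (1533 TPM) came before Snap25 (1480.2 TPM) and Syn2 (524 TPM) before Syn1 (513 TPM), and Syp (910 TPM) stood above both synapsins, so the order of these genes depends on the length used.

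Of the 7 counterparts given here, each had a lower mean than its member. Vamp1 stood at 54.8 ± 9.27 TPM, Synpr (synaptoporin, a relative of synaptophysin) at 36.1 ± 13.2, Syt2 at 31.0 ± 9.97, Snap23 at 17.3 ± 1.89 and Syn3 at 4.79 ± 0.914. Among transporters, Slc32a1, which loads GABA and glycine, was at 85.3 ± 7.85 TPM and Slc17a6, the other main glutamate transporter of the forebrain and brainstem, at 33.5 ± 13.3 TPM, against 850.2 for Slc17a7.

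**Figure D1:**
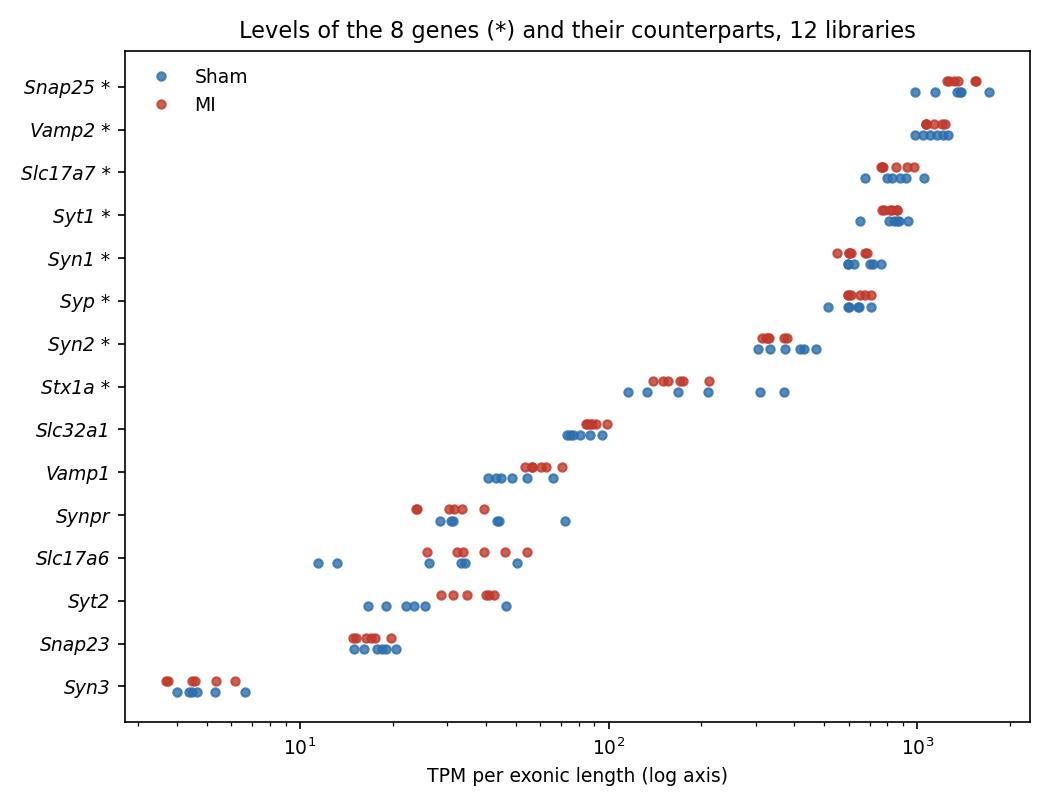
Level per exonic length (TPM, log axis) of the 8 genes, marked with an asterisk, and of 7 counterparts in the 6 Sham (blue) and 6 MI (red) libraries, 1 point per library. Snap25 has the highest mean (1349 TPM) and Syn3 the lowest (4.79 TPM), and the 2 groups overlap in every row.

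Synapsins are phosphoproteins that coat vesicles and tether them to one another and to actin. Syn1 (ENSMUSG00000037217, chrX:20860511-20921004, minus strand, mm10) had a lowest, median and highest level of 440 (MI 2), 486 and 555 CPM (MI 3) in MI and 465 (Sham 4), 530.4 and 599 CPM (Sham 2) in Sham. The means were 495 ± 43.0 and 526 ± 50.0 CPM (SD, n = 6), and 2 MI libraries of 6 exceeded the median of Sham. The log2 fold change was -0.09 (SE 0.07, 95% interval -0.25 to 0.07; edgeR adjusted p = 0.823). The groups overlapped over most of their range. Without Sham 2 the value was -0.05, and with the pan-neuronal score as a covariate it was -0.15.

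Syn2 (ENSMUSG00000009394, chr6:115134902-115282006, plus strand) ran from 523 (MI 6) over a median of 564 to 639 CPM in MI, and from 526 (Sham 6) over 651 to 791 CPM (Sham 2) in Sham. Here 0 of 6 MI libraries lay above the Sham median, yet Sham 4, Sham 5 and Sham 6 fell within the range of the MI values. With means of 580.4 ± 47.6 in MI and 653 ± 95.6 CPM in Sham, its log2 fold change was -0.17 (SE 0.09, 95% interval -0.37 to 0.03; edgeR adjusted p = 0.707), the closest of the 8 to an unadjusted p of 0.05. The exact permutation test over samples gave an unadjusted two-sided p of 0.128. With a pan-neuronal score (the mean deviation of log2 CPM over the 14 markers) as a covariate the log2 fold change was -0.26 (SE 0.07; edgeR unadjusted p = 0.00325, adjusted p = 0.503), more than 1.5 times as far from 0. The 14 markers themselves had 10 positive and 4 negative log2 fold changes. A fit with their score, also for Syn1, therefore cannot part makeup from group. Without Sham 2, the highest library, the Syn2 log2 fold change was -0.11, also more than 1.5 times away from the value in all libraries. Without Sham 6, the lowest Sham library, it was -0.23 (edgeR unadjusted p = 0.0155, adjusted p = 0.457). The unadjusted p was also under 0.05 in limma-voom with sample weights (0.00993, adjusted 0.326). In edgeR it was so with the sex-linked set as a covariate (0.0207), without Sham 1 and Sham 6 (0.0262) and in libraries with Y-linked counts alone (0.0167). In most other alternatives it was above 0.05, and none passed the adjusted threshold.

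Syn2 is the 1 of the 8 genes that the authors' deposited tables list. In the authors' deposited table of genes lower in MI it had a log2 fold change of -0.18 and an adjusted p of 0.0139, and the deposited log2-scale values did not overlap between groups (13.79 to 13.88 in MI, 13.95 to 14.16 in Sham). The deposited tables hold 1059 genes, among them 6.09% of the genes tested here. They hold only genes listed as higher or lower in MI, and the share of these without overlap is not given here. Of the further release machinery genes listed there, Slc17a6, Cplx1, Ap2a2, Pclo, Synj1 and Cltc also had no overlap. Syt2, Vamp1, Rph3a, Rims3 and Bsn had overlapping groups. The counts gave a like log2 fold change (-0.17) with overlapping groups and no call. The sources used here do not say how those tables were made.

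Synaptophysin, the product of Syp, is the most familiar membrane protein of small synaptic vesicles and a standard marker of terminals. Syp (ENSMUSG00000031144, chrX:7638471-7653256, plus strand) had 748 (MI 5), 794 and 910 CPM (MI 3) as lowest, median and highest level in MI, and 657 (Sham 6), 779 and 883 CPM (Sham 2) in Sham. MI libraries were on both sides of the Sham median, 3 of 6 above it. Means were 807 ± 65.4 and 773 ± 74.5 CPM (SD, n = 6) and the log2 fold change was 0.06 (SE 0.07, 95% interval -0.10 to 0.22; edgeR adjusted p = 0.894), which became 0.02 without Sham 6 and 0.10 without Sham 2. Of the 5157 stretches of 50 bases (the read length) in its exons, 829 (16.1%) are shared with the antisense gene Gm14703, whose mean count of 86.8 was small beside the 20334 of Syp. In Syn2 42 of 6977 stretches (0.602%) are shared with Timp4 on the opposite strand, in Snap25 15 of 6776 (0.221%) with other genes, and in the other 5 genes none. The sources used here do not say whether counting took account of strand.

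Slc17a7 encodes the vesicular glutamate transporter VGLUT1, which loads glutamate into vesicles of most cortical and hippocampal excitatory neurons. Slc17a7 (ENSMUSG00000070570, chr7:45163949-45176142, plus strand) ranged from 985 (MI 6) over a median of 1055 to 1289.7 CPM (MI 3) in MI and from 867 (Sham 4) over 1085 to 1354 CPM (Sham 2) in Sham. The 6 MI values lay inside the Sham range. Group means were 1100.1 ± 129 and 1111 ± 169 CPM (SD, n = 6), with a log2 fold change of -0.01 (SE 0.10, 95% interval -0.24 to 0.21; edgeR adjusted p = 0.982).

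Snap25 supplies a pair of the helices of the fusion complex from the plasma membrane. Snap25 (ENSMUSG00000027273, chr2:136713453-136782428, plus strand) had 2065 (MI 4), 2169.6 and 2560.4 CPM (MI 3) as lowest, median and highest level in MI, and 1629 (Sham 6), 2197 and 2685 CPM (Sham 1) in Sham. Both the highest and the lowest of the 12 libraries were Sham libraries. From means of 2262 ± 219 and 2146 ± 351 CPM (SD, n = 6) the log2 fold change was 0.08 (SE 0.10, 95% interval -0.15 to 0.30; edgeR adjusted p = 0.907). It was 0.005 without Sham 6, 0.15 without Sham 1 and 0.16 with the meningeal and dentate scores as covariates (edgeR unadjusted p = 0.0160, adjusted p = 0.661). The log2 fold changes of those markers were mostly negative themselves, so this fit cannot part makeup from group.

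Vamp2, or synaptobrevin 2, is the SNARE of the vesicle membrane. Vamp2 (ENSMUSG00000020894, chr11:69088490-69092384, plus strand) varied least of the 8 genes, with a highest library 1.23 times the lowest. Its lowest, median and highest level was 959 (MI 6), 1016 and 1125 CPM (MI 3) in MI and 918 (Sham 6), 1021 and 1109 CPM (Sham 1) in Sham. The means of 1038 ± 72.1 and 1027 ± 74.3 CPM (SD, n = 6) gave a log2 fold change of 0.02 (SE 0.06, 95% interval -0.12 to 0.15; edgeR adjusted p = 0.974).

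Synaptotagmin 1, encoded by Syt1, is the calcium sensor of fast synchronous release. Syt1 (ENSMUSG00000035864, chr10:108497650-109010982, minus strand) ran from 1560.4 (MI 2) over a median of 1644 to 1764 CPM (MI 3) in MI and from 1327 (Sham 6) over 1686 to 1812 CPM (Sham 1) in Sham. Apart from Sham 6 the Sham libraries lay at 1667 CPM or higher. Means were 1649 ± 79.7 and 1654 ± 169 CPM (SD, n = 6), and the log2 fold change was -0.004 (SE 0.07, 95% interval -0.16 to 0.15; edgeR adjusted p = 0.994).

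Stx1a encodes syntaxin 1A, the plasma membrane SNARE that Vamp2 and Snap25 pair with. Stx1a (ENSMUSG00000007207, chr5:135023482-135051100, plus strand) stood out by its spread. In MI it was 90.3 (MI 2), 104 and 135 CPM (MI 1) as lowest, median and highest level, and in Sham 75.6 (Sham 6), 119.5 and 229 CPM (Sham 1), with Sham 2 at 198 CPM. The highest library was 3.02 times the lowest, and the 6 MI libraries lay within the Sham range. The coefficient of variation was 14.9% in MI and 44.7% in Sham. From means of 108 ± 16.0 and 138 ± 61.9 CPM (SD, n = 6) the log2 fold change was -0.36 (SE 0.25, 95% interval -0.90 to 0.17; edgeR adjusted p = 0.765), and the exact permutation test gave an unadjusted two-sided p of 0.372.

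The libraries that set the Stx1a spread also stood apart in marker genes. Sham 1 and Sham 2, the highest in Stx1a, were the highest in the meningeal score (the mean deviation of log2 CPM over the list), at 1.73 and 0.92, and Sham 1 had the highest neocortex score, 1.32. Sham 6, the lowest in Stx1a, had the highest dentate score, 1.87. MI 1, the next highest in Stx1a after Sham 1 and Sham 2 at 135 CPM, had a meningeal score of -0.48. Its dentate score, -1.41, was the lowest of the 12 libraries. The dentate scores of Sham 1 and Sham 2 were -1.10 and -0.11. With the meningeal and dentate scores as covariates, the log2 fold change of Stx1a was 0.01 (SE 0.15; adjusted p = 0.995). It was -0.16 without Sham 1, -0.23 without Sham 2 and -0.29 without both Sham 1 and Sham 6. The log2 fold changes of the meningeal markers were themselves negative for 9 of 9, so a fit with their score cannot part makeup from group. The part of tissue makeup in the Stx1a values was not tested.

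**Figure D2:**
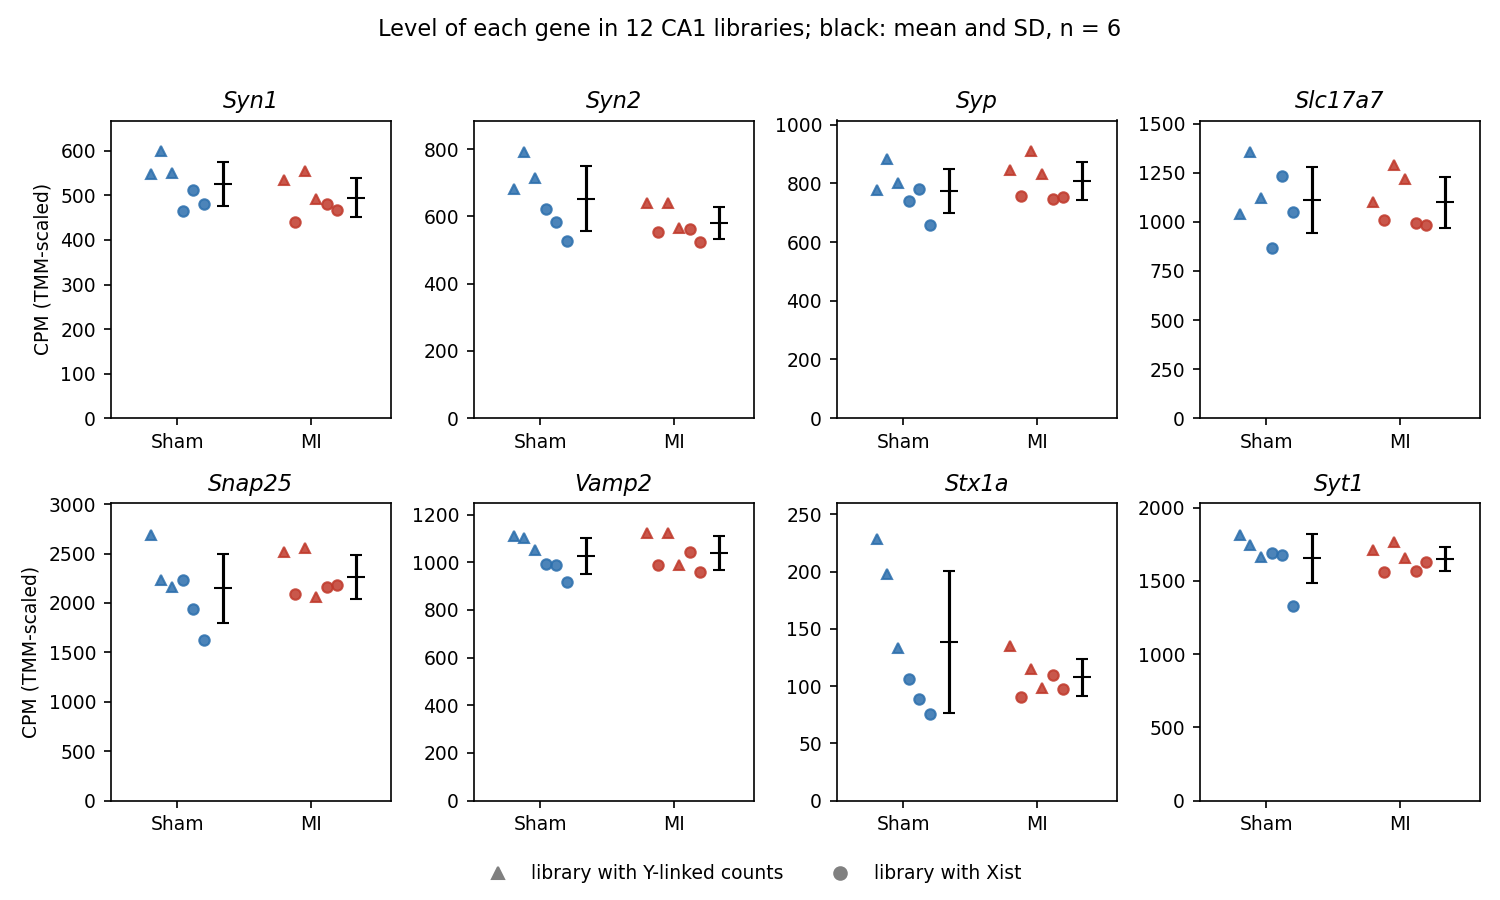
Level in CPM (linear axis from 0) of each of the 8 genes in 6 Sham (blue) and 6 MI (red) libraries, with triangles for libraries with Y-linked counts, circles for libraries with Xist, and the group mean and SD in black (n = 6). The groups overlap in every panel, and in the Stx1a panel the Sham libraries run from 75.6 to 229 CPM.

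Spread within groups was larger in Sham for each of the 8 genes. The SD of log2 CPM was 0.21 in MI and 0.64 in Sham for Stx1a, 0.14 and 0.24 for Snap25, 0.12 and 0.21 for Syn2, 0.07 and 0.16 for Syt1, 0.17 and 0.22 for Slc17a7, 0.12 and 0.14 for Syp, 0.12 and 0.14 for Syn1 and 0.10 and 0.11 for Vamp2. The median over 13590 genes with a mean of at least 50 counts was 0.11 in MI and 0.15 in Sham, so the Sham spread was the wider over the data as a whole too. The difference in spread was not tested.

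Most libraries were high or low for most of the 8 genes at once. All 8 genes lay above their own mean in MI 1 and Sham 2, and 0 of them in MI 2, MI 6 and Sham 6. In MI 4, Sham 4 and Sham 5 it was 3 of the 8. Averaged over the 8 genes, the deviation of log2 CPM from the mean of the 12 libraries was highest in Sham 2 (0.26) and Sham 1 (0.21), then MI 3 (0.13), MI 1 (0.10) and Sham 3 (0.08). It was lowest in Sham 6 (-0.27), then MI 2 (-0.14), MI 6 (-0.12), Sham 4 (-0.08), MI 5 (-0.07), Sham 5 (-0.06) and MI 4 (-0.04). Sham 6 was the lowest library for 5 of the 8 genes, and the highest library was Sham 1 for 3 of them (Snap25, Stx1a and Syt1), Sham 2 for 3 (Syn1, Syn2 and Slc17a7) and MI 3 for 2 (Syp and Vamp2). Both ends of the order were Sham libraries. The pan-neuronal score of Sham 6 was -0.29, the lowest of the 12, and its part in the low levels was not tested.

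**Figure D3:**
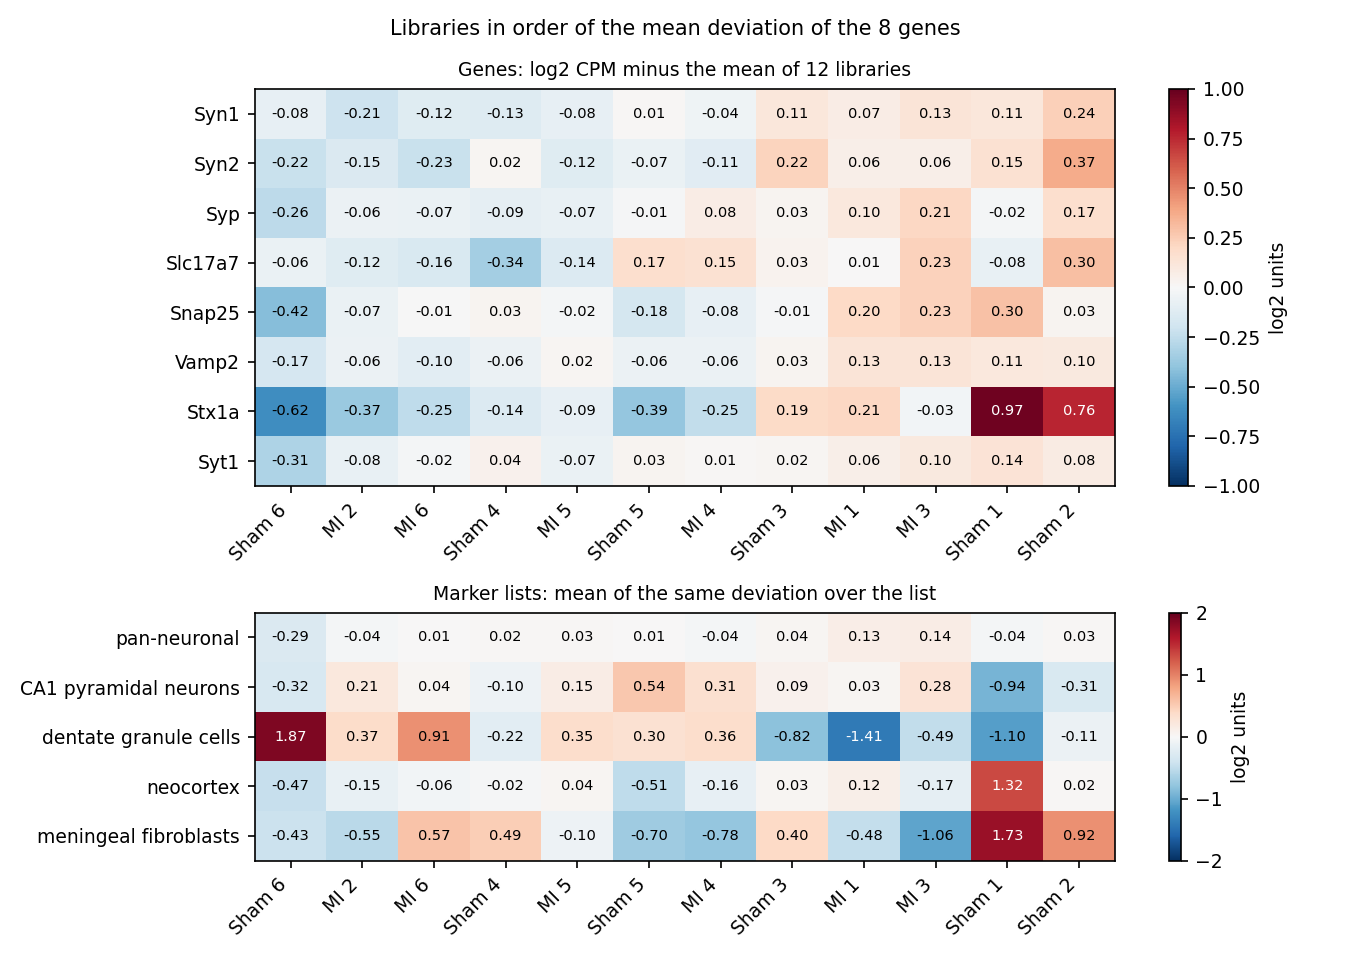
Deviation of log2 CPM from the mean of 12 libraries for the 8 genes (upper panel) and the mean deviation over 5 marker lists (lower panel), with libraries ordered by the mean over the 8 genes and red for above and blue for below the mean. Sham 6 (-0.27) is at the low end and Sham 2 (0.26) at the high end, and Stx1a departs most.

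Between the 8 genes, 28 of 28 pairs had a positive Pearson correlation of log2 CPM over the 12 libraries, with a median r of 0.71. Of these pairs, 19 had a permutation p under 0.05 after Benjamini-Hochberg adjustment over the 28. All values of a library share its scaling and tissue makeup, so they are not independent measurements. Pairs of other genes were not counted, so these counts are not shown to be particular to the 8 genes. The closest pair by Pearson r was Syn1 and Syn2 (r = 0.86, Spearman's rho = 0.80, permutation p = 0.00041, adjusted p = 0.00538), with r = 0.80 without MI 2 and Sham 2, the libraries farthest from the Syn1 median. Snap25 and Syt1 were nearly as close (r = 0.86), and by Spearman's rho Vamp2 and Stx1a were the closest pair (rho = 0.88). Snap25 and Slc17a7 were the least alike (r = 0.06, permutation p = 0.846). Vamp2 had the highest median r with the other 7 genes (0.76) and Slc17a7 the lowest (0.42).

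The correlations were lower within the sex-linked sets. Within the 6 libraries with Y-linked counts the median r over the pairs was 0.35, with 22 of 28 positive, and within the 6 libraries with Xist it was 0.47, with 20 of 28 positive. Syn1 and Syn2 had r = 0.93 within the first set and r = 0.14 within the second. After the group means were subtracted the median r was 0.75, and without the 2 libraries farthest from the median of the first gene it was 0.61. The correlation of Syp and Snap25 (r = 0.66) fell to 0.16 without MI 3 and Sham 6 and so rests on those libraries.

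The gene most like each of the 8 was looked up among 13556 other genes with a mean of at least 50 counts, by Pearson r of log2 CPM over the 12 libraries. For Syn2 it was the tubulin gene Tubb5 (r = 0.97), for Syn1 Pdzd4 (r = 0.96) and for Syp the predicted gene Gm17018 (r = 0.98). For Snap25 it was the heparan sulfate sulfotransferase gene Hs3st2 (r = 0.97), for Vamp2 the galactose enzyme gene Galt (r = 0.94) and for Stx1a the corticotropin-releasing hormone receptor gene Crhr1 (r = 0.97). Syt1 was closest to the autophagy gene Gabarapl1 (r = 0.95) and Slc17a7 to the methyltransferase gene Lcmt1 (r = 0.95). These are the highest values of a large search and are given as a description.

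All 8 genes were on average higher in the libraries with Y-linked counts than in those with Xist. The mean log2 CPM differed by 0.62 for Stx1a, 0.25 for Syn2, 0.22 for Snap25, 0.22 for Slc17a7, 0.21 for Syn1, 0.19 for Syp, 0.14 for Vamp2 and 0.14 for Syt1. For 7 of the genes 6 of 6 libraries with Y-linked counts lay above the Xist median, and for Snap25 it was 5 of 6. The sets overlapped for all 8, and the difference was not tested. The share of all genes with such a difference was not counted. The 8 genes also varied together, so they are not 8 separate observations. Syn1 and Syp lie on the X chromosome, and the 6 autosomal genes differed by 0.14 to 0.62. Some marker sums moved with the sets too, and others differed little. The pan-neuronal sum had medians of 6161 CPM with Y-linked counts and 6056 CPM with Xist. For interneurons the medians were 1524 and 1514 CPM, and for endothelium 237 and 242 CPM. The dentate sum was 302 to 443 CPM (median 382) with Y-linked counts and 370.3 to 1169 CPM (median 444) with Xist, and the neocortex sum was 207 to 451 CPM (median 264) and 163 to 261 CPM (median 233). The CA2 and CA3 sum was 586 to 679 CPM with Y-linked counts and 451 to 595 CPM with Xist, the astrocyte sum 4984 to 5510.2 CPM and 5489 to 6953 CPM, and the oligodendrocyte sum had medians of 4858 and 5591 CPM. The part of tissue makeup in the set difference was not tested.

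The MI difference was also read within each set, 3 libraries against 3. In the libraries with Y-linked counts the log2 fold change was -0.69 (SE 0.21) for Stx1a and -0.25 (SE 0.08) for Syn2, and edgeR's adjusted p was 0.186 and 0.203. This fit called 1.26% of 16777 genes, and 0 of the 8. In the same 6 libraries the oligodendrocyte sums were apart, at 6087 to 6762 CPM in MI and 2915 to 3628 CPM in Sham, and so were the meningeal sums, at 45.5 to 64.2 CPM and 117 to 303 CPM. Their part in the Stx1a and Syn2 values was not tested within this set. In the libraries with Xist the log2 fold change was 0.14 (SE 0.13) for Stx1a and -0.08 (SE 0.09) for Syn2, and the fit called 0.0% of 16975 genes. The difference between the sets, as an interaction term, was -0.83 (SE 0.28) for Stx1a, with an unadjusted p of 0.0127 and an adjusted p of 0.507 in edgeR's quasi-likelihood test. For Syn2 it was -0.17 (SE 0.12; adjusted p = 0.692). An unadjusted p under 0.05 for the interaction occurred in 1 of the 8 genes and in 8.24% of all genes, and an adjusted one in 0 of the 8 and in 0.0119% of all genes. The Stx1a levels of Sham 1 and Sham 2, at 229 and 198 CPM, both belong to the set with Y-linked counts.

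**Figure D4:**
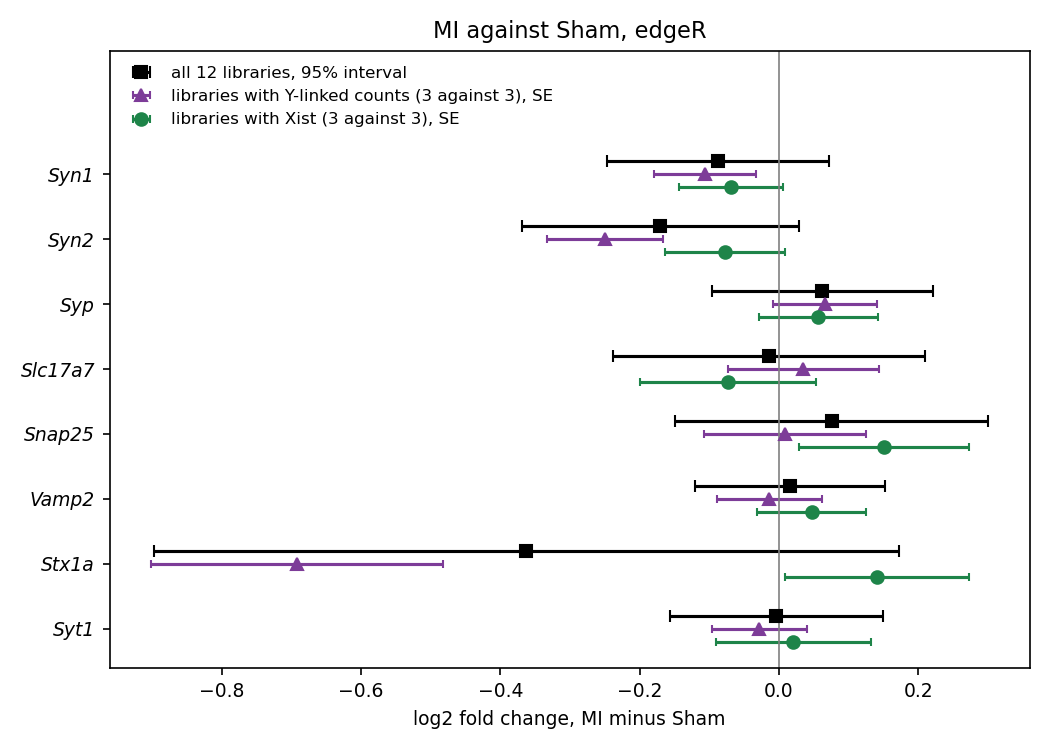
Log2 fold change, MI minus Sham, of each of the 8 genes in all 12 libraries (black, 95% interval), in the 6 libraries with Y-linked counts (purple, SE) and in the 6 with Xist (green, SE). The 95% interval includes 0 for all 8, and the sets lie farthest apart for Stx1a (-0.69 and 0.14).

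Proteins with overlapping roles can stand in for one another, so most genes were set against a counterpart as a ratio per exonic length, 7 ratios in all, with exact permutation tests adjusted over the 7. Vamp2 over Vamp1 was 18.9 ± 1.33 in MI and 23.2 ± 4.17 in Sham (SD, n = 6; exact p = 0.0390, adjusted 0.136), and Syt1 over Syt2 was 22.9 ± 3.97 and 35.7 ± 10.8 (exact p = 0.0260, adjusted 0.136). Neither passed the adjustment. Vamp1 had 133 to 172 CPM in MI and 98.9 to 159 CPM in Sham, and Syt2 had 53.5 to 78.0 CPM and 30.4 to 84.2 CPM. In both of these counterparts 6 of 6 MI libraries exceeded the median of Sham, and Sham 4 was above most MI libraries. Snap25 over Snap23 was 82.7 ± 11.5 and 75.1 ± 16.0 (exact p = 0.381), Slc17a7 over Slc32a1 9.45 ± 0.954 and 10.7 ± 2.02 (exact p = 0.275) and Slc17a7 over Slc17a6 23.4 ± 8.03 and 40.4 ± 23.9 (exact p = 0.182). Syp over Synpr was 21.9 ± 5.86 and 16.5 ± 5.39 (exact p = 0.147), and Syn1 over Syn2 was 1.82 ± 0.0728 and 1.73 ± 0.146 (exact p = 0.190).

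The 8 genes belong to a larger machinery, listed here as 124 further genes by role, of which 123 were tested and Slc18a3, the vesicular acetylcholine transporter, was not. Of the 123, 0 passed the adjusted threshold, and 8 (6.50%) had an unadjusted p under 0.05, 5 higher and 3 lower in MI, against 7.55% of all genes (3.95% higher and 3.59% lower). Their median log2 fold change was -0.01 with 57 positive and 66 negative, as in all genes (median -0.01, 8011 positive and 8818 negative).

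By role, the lists closest to the 8 genes showed medians near 0. The 11 other vesicle membrane proteins and synapsins had a median log2 fold change of -0.0005 (5 positive, 6 negative), the lowest being Synpr at -0.45 (SE 0.22; adjusted p = 0.690), which reached 167 CPM in Sham 6, the library with the highest dentate sum. Without Sham 6 Synpr was at -0.21. Sv2c was at -0.39 (SE 0.29) and without Sham 6 at -0.06, Sypl at 0.06 (SE 0.06) and Syn3 at -0.06 (SE 0.14). The 10 other SNARE proteins had a median of 0.01 (6 positive, 4 negative), with Vamp1 at 0.29 (SE 0.10; adjusted p = 0.597), Vamp4 at -0.07 (SE 0.05), Vamp3 at 0.06 (SE 0.06) and Snap23 at -0.07 (SE 0.08). Among the 14 calcium sensors (median -0.03, 7 positive, 7 negative) were Syt2 at 0.52 (SE 0.21), Syt3 at 0.23 (SE 0.08) and Syt13 at -0.16 (SE 0.07), all 3 with an unadjusted p under 0.05 and adjusted p of 0.597 to 0.654. The Syt2 level had all 6 MI libraries above the Sham median, with Sham 4 the highest of the 12.

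Proteins that dock and prime vesicles or recycle SNAREs numbered 24 (median -0.03, 9 positive, 15 negative, 0 with an unadjusted p under 0.05), among them Cadps2 at 0.31 (SE 0.16), Cplx1, a complexin that clamps and assists fusion, at 0.17 (SE 0.09), and Stxbp6 at -0.51 (SE 0.35; -0.05 without Sham 6), which is also in the list of dentate markers. Of the 14 active zone scaffolds, the large proteins that line up vesicles with calcium channels, 12 were negative and 2 positive, with a median of -0.10. Bassoon (Bsn) was at -0.16 (SE 0.05; adjusted p = 0.597; exact permutation p = 0.0065, unadjusted), Erc2 at -0.23 (SE 0.10; adjusted p = 0.635) and piccolo (Pclo) at -0.12 (SE 0.06; adjusted p = 0.690), and for these 3 genes 0 of 6 MI libraries exceeded the median of Sham. These 3 were named for the smallest unadjusted p of their list in the same libraries. The permutation p and the counts of libraries are therefore no separate support. The 7 vesicular transporters had a median of 0.14 (5 positive, 2 negative), with Slc17a6 at 0.48 (SE 0.31), Slc32a1 at 0.14 (SE 0.06; adjusted p = 0.646) and the zinc transporter gene Slc30a3 at -0.35 (SE 0.18).

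The 16 subunits of the proton pump that energises vesicle filling had a median of 0.0004 (8 positive, 8 negative), with Atp6v1f at 0.13 (SE 0.06; adjusted p = 0.657), Atp6v1a at -0.06 (SE 0.04) and Atp6v1d at -0.05 (SE 0.06). The 27 genes of vesicle endocytosis and chaperones had a median of 0.01 (15 positive, 12 negative, 0 with an unadjusted p under 0.05), with Bin1 at 0.13 (SE 0.06), the clathrin light chain gene Cltb at 0.09 (SE 0.05) and the scaffold Itsn1 at -0.11 (SE 0.07). Without Sham 1 and Sham 6 the median over all of the release genes was -0.03, and the median of all genes in that fit is not given here.

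**Figure D5:**
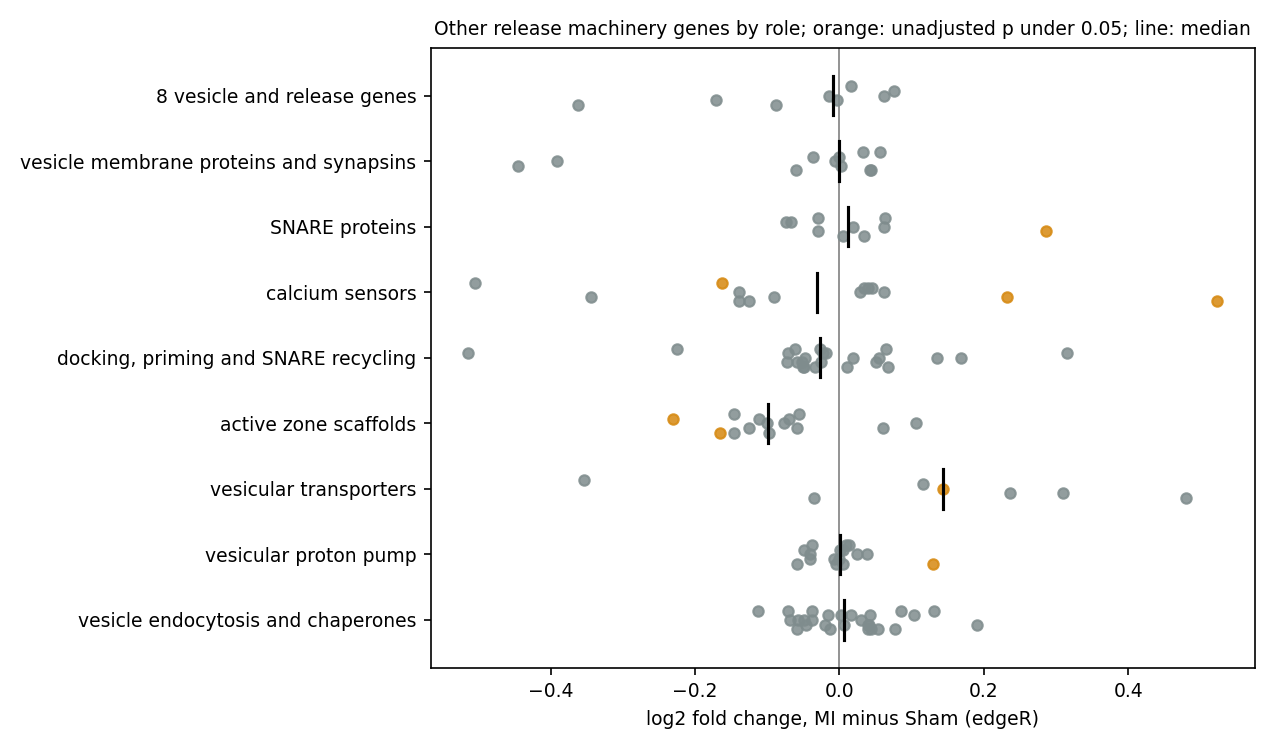
Log2 fold change, MI minus Sham, of the 8 genes (top row) and of the tested genes of 8 release machinery lists, 1 point per gene, orange where the unadjusted p is under 0.05 and a black line at the median. The active zone scaffolds have the lowest list median (-0.10) and the vesicular transporters the highest (0.14), and no gene passed the adjusted threshold.

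The authors' deposited tables list 11 of the 123 tested release genes (8.94%), against 6.09% of all genes tested, 6 of them in the table of higher genes and 5 in that of lower genes. Among the higher genes of the authors' deposited table, Slc17a6 had a log2 fold change of 0.68, Syt2 of 0.56, Rims3 of 0.30, Vamp1 of 0.29, Rph3a of 0.20 and Cplx1 of 0.20. Among the lower genes of the authors' deposited table, Bsn had -0.18, Pclo -0.16, Ap2a2 -0.12, Synj1 -0.10 and Cltc -0.09. The counts gave the opposite sign for Rims3, with a log2 fold change of -0.08, and the same sign for the other 10. edgeR's quasi-likelihood test on the counts called 0 of the 11 at an adjusted p under 0.05.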

How the data were processed

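The 12 deposited files hold raw read counts per Ensembl gene, which the authors made from 50-base single-end reads of polyadenylated RNA, per the labels' protocols. The submitters' processing notes name the mm10 build and the tools STAR 2.5.2b, Subread 1.5.1, featureCounts and FastQC 0.11.5. No strand setting is given. The authors' deposited gene tables hold log2 values, log2 fold changes and adjusted p-values. Symbols for 48349 of 48709 IDs and coordinates came from GENCODE M21, which is on mm10. Of 260 list entries, 259 matched by symbol and 1 by an older symbol. Counts were filtered with filterByExpr, scaled by TMM and tested in edgeR 4.0.16 (R 4.3.3) by the robust quasi-likelihood F test, two-sided, with Benjamini-Hochberg adjustment over 16829 genes and a threshold of 0.05. CPM are counts scaled by effective library size, with a prior count of 2 on the log2 scale. Single values were compared by an exact permutation test, whose smallest possible p is 0.0021645, and correlations by 100000 permutations. The genes and lists were chosen with earlier results of these data known. Named genes are the 8 genes, 7 counterparts (1 gene of the rule is not reported here), the 3 smallest unadjusted p per role list (mean of at least 50 counts), the gene most like each of the 8, and tissue markers. Genes of the authors' tables that fall outside this rule were named after their values were seen. No library was a duplicate of another of its group (chi-square per degree of freedom 6.22 to 78.2, 30 pairs). Alternatives were DESeq2 1.42.0, limma 3.58.1 (voom with sample weights), other scalings and filters, the replicate block, the sex-linked set, marker covariates, and leaving out libraries.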

Additional observations from a re-analysis of the deposited data

Results flagged for a closer look

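Syt1 in Sham 6 lay apart from its group. Its level there was 1327 CPM while the other 5 Sham libraries had 1667 to 1812 CPM, and the gap to the nearest of them was 0.70 of the range of the Sham libraries, above Dixon's 95% critical value for 6 samples. Of 16 groups examined (8 genes, MI and Sham), 1 was marked, and chance marks about 1 in 20 groups. Sham 6 also had the lowest pan-neuronal sum, 5466 CPM, and the highest dentate sum, 1169 CPM, and their part in the Syt1 value was not tested.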

How the results depend on the processing

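Of the 8 genes, 0 passed the adjusted threshold under any of the 26 alternatives, in which the adjusted p of a member was never below 0.186. Over all genes, the count past the threshold was 0 in edgeR, 16 in DESeq2 and 211 when only libraries with Y-linked counts were fitted, with 0 in the other 24 alternatives. The interaction with the sex-linked set had 2 calls over all genes, 0 with at least 50 counts in 6 libraries, and 0 to 61 when 1 library was left out (14 without Sham 3 and 61 without Sham 4).

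The sign was kept in 182 of 208 fits of a member and turned in 26. With the pan-neuronal score as a covariate the log2 fold change was -0.0080 for Syp, -0.0316 for Snap25, -0.0412 for Vamp2, 0.0886 for Syn3 and 0.0710 for Stxbp6. In limma-voom with sample weights it was -0.00996 for Vamp2, 0.000656 for Slc17a7 and 0.0312 for Syn3. Libraries with Y-linked counts gave -0.0136 for Vamp2 and 0.0348 for Slc17a7. Those with Xist gave 0.141 for Stx1a, 0.0205 for Syt1, 0.0105 for Syn3, -0.0155 for Vamp3, 0.000688 for Atp6v1d and -0.0246 for Bin1. With meningeal and dentate scores as covariates it was 0.00844 for Stx1a and 0.0233 for Syt1. It was 0.00446 for Syt1 without a filter on low counts, and without Sham 1 and Sham 6 it was 0.0285 for Syn3 and 0.0811 for Stxbp6. The cause was not tested. When 1 library was left out, the log2 fold change ran from -0.0161 to 0.0377 for Vamp2, -0.0618 to 0.0224 for Syt1, -0.0769 to 0.0503 for Slc17a7 and -0.149 to 0.04999 for Syn3, and the interaction from -0.0757 to 0.0121 for Syn1, -0.0449 to 0.0774 for Syp, -0.1097 to 0.0584 for Syt1 and -0.0239 to 0.231 for Slc17a7. Stx1a ran from -0.4896 to -0.164, Syn2 from -0.227 to -0.108, Syn1 from -0.123 to -0.0467, Syp from 0.0177 to 0.104 and Snap25 from 0.00542 to 0.148.

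With the replicate number as a block there were 0 calls over all genes, and the log2 fold change was -0.257 for Stx1a, -0.161 for Syn2 and 0.00143 for Syt1. The labels do not say that a number pairs samples. The correlation of deviations between MI and Sham libraries of the same number ran from -0.3499 to 0.405, and only MI 1, MI 3 and MI 6 correlated best with their own number.

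The precision of 6 libraries a group is given by the 95% intervals of the log2 fold change, such as -0.12 to 0.15 for Vamp2 and -0.90 to 0.17 for Stx1a.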
